A study of Mus musculus with 23 samples.

Results

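Muscle unloading in orbit was compared with muscle unloading on the ground by setting the expression change of spaceflight mice beside that of hindlimb-suspended mice. The arrays were chosen by their sample titles, and 18 of the 23 arrays of the series entered the comparison directly. The flight experiment comprised 4 spaceflight gastrocnemius arrays and 4 ground AEM arrays. The suspension experiment comprised 5 calf muscle arrays of suspended mice and 5 of untreated controls.

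All groups were female C57BL/6J mice aged 77 days, and the labels name no drug or engineered allele. Spaceflight lasted 11 days and 19 h. The AEM animals spent the same time on the ground in a simulator that copied the temperature, humidity and CO2 of the shuttle middeck. Suspended mice hung by the tail from a swivel for 12 days, whereas their controls were kept in ordinary cages. A further 5 calf arrays came from mice reloaded for 3.5 h after 12 days of suspension, and they contributed only to the estimate of the spread. The flight control therefore shared the housing conditions of the flight mice, and the suspension control did not share the tail harness. The muscle sampled, the control housing and the kind of unloading differ together between the experiments and cannot be told apart. The free-text description given to each spaceflight sample fits the AEM group and the reverse, against titles and source names, and the titles were followed. With these groups exchanged every flight effect would change sign.

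Skeletal muscle adjusts its mass, fibre type and metabolism to the load it bears. Postural, slow-fibre muscle is the most sensitive to unloading, and mechanical sensors at the Z-disc and in the matrix report stretch to the nucleus. Glucocorticoids, released in stress and fasting, act through their nuclear receptor to raise catabolic genes in muscle, including those of the FOXO pathway, and insulin signalling opposes that programme. Suspension removes weight from the hindlimbs alone, whereas spaceflight unloads the entire body.

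The values are log2 signals, so that a difference of 1 is a 2-fold change. The flight effect is the mean of the spaceflight arrays minus the mean of the AEM arrays. The suspension effect is the mean of the suspension arrays minus the mean of the control arrays. The difference of effects is the first minus the second, so that a level shift between the experiments or muscles cancels. A gene was called where limma, a linear model with moderated variance fitted across all 9133 tested genes, gave a Benjamini-Hochberg adjusted p under 0.05. No label states whether replicates are separate animals, and the p-values may therefore reflect technical spread alone.

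The tissue labels were checked first. Of 9 tested genes that define skeletal muscle, limma called 0 in either experiment or for the difference (1 in flight, 1 in suspension and 0 for the difference at an unadjusted p under 0.05). Their median signal was 12.95 to 13.23 on every array of the 4 groups. The 7 markers of slow, soleus-type muscle had a summed linear signal of 13160 to 20212 on the spaceflight arrays and 15510 to 18664 on the AEM arrays. The corresponding sums were 19565 to 24318 in suspension and 27238 to 30229 in the controls. The calf controls carried more slow-fibre signal than any other group and overlapped none. The interquartile range of all signals was wider in the flight experiment, at 2.75 to 2.91, than on the calf arrays, at 2.21 to 2.46. Suspension replicates 8 and 9 stood apart from their group, with median correlations of 0.985 and 0.989 against at least 0.991 for the other 3.

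More genes passed the test in flight than in suspension. By limma, 515 genes were called in the flight experiment (5.64% of those tested), of which 290 were higher (3.18%) and 225 lower (2.46%). In suspension 34 genes were called (0.372%), 12 higher (0.131%) and 22 lower (0.241%). Spaceflight and AEM arrays did not overlap for 12.4% of all tested genes, and suspension and control arrays for 2.04%. The standard errors were alike, with medians of 0.0898 for the flight effect and 0.0887 for the suspension effect. The effects themselves were not, with SDs over the 9133 genes of 0.207 in flight and 0.132 in suspension. The gap was narrower, with SDs of 0.190 and 0.137, after quantile normalization gave all arrays the same signal distribution. The counts depended on single arrays. Flight calls dropped to 283 without AEM replicate 3, 303 without spaceflight replicate 9, 326 without spaceflight replicate 8 and 328 without AEM replicate 4. Suspension calls dropped to 15 without control replicate 22, 16 without control replicate 19, 19 without suspension replicate 8, and 21 without suspension replicate 9 or 30. Without suspension replicates 8 and 9 together, 7 remained.

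Both experiments called 12 genes in the same direction (0.131% of those tested), and 0 in opposite directions. At an unadjusted p under 0.05 in each, 223 genes had both effects of the same sign and 20 had opposite signs. These 12 were 2.33% of the flight calls and 35.3% of the suspension calls. At an unadjusted p under 0.05, 90 of the 515 flight-called genes also had a suspension effect of the same sign, while 8.65% of all genes had a suspension effect at that level in either direction. Both effects had the same sign in 55.2% of all genes. Among flight-called genes the share was 67.8%, and among suspension-called genes 28 of 34. Across all 9133 genes the flight and suspension effects had a Pearson r of 0.259 and a Spearman rho of 0.177. These describe genes, which are not independent replicates.

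The difference of effects was called for 116 genes (1.27%), 79 with the flight effect above the suspension effect (0.865%) and 37 with it below (0.405%). Of the 116, 108 were also called in flight and 2 in suspension. The effects had opposite signs for 70 and the same sign with the larger size in flight for 46. For 0 of the 116 did suspension have the larger effect in the same direction. The mean of the 2 effects was called for 529 genes (5.79%). Of these, 439 had both effects of 1 sign and no called difference (4.81%), 209 higher (2.29%) and 230 lower (2.52%). That class includes genes whose mean was carried by flight: 199 of the 439 (2.18% of those tested) also reached an unadjusted p under 0.05 in each experiment on its own. In 142 of these 199 the flight effect was the larger. In what follows, "shared by both models" means these 199, and that stricter criterion was chosen after the data had been seen.

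**Figure D1:**
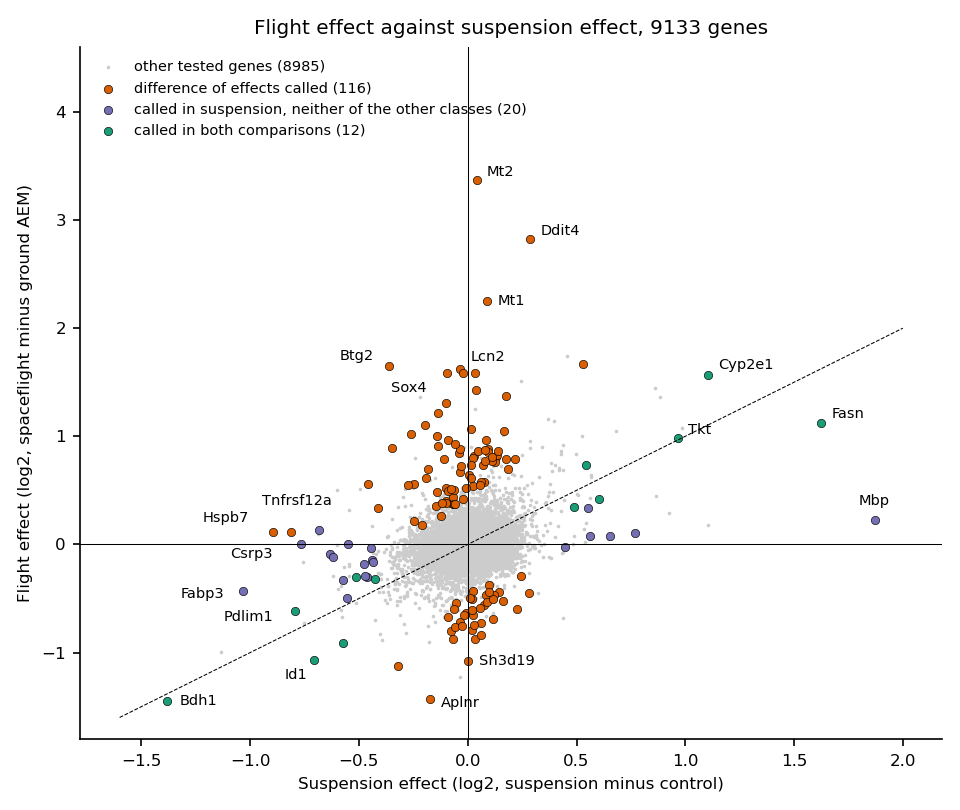
Each point is one of the 9133 tested genes, with the suspension effect on the horizontal axis and the flight effect on the vertical axis, both in log2 units. The 116 genes with a called difference (orange) lie mostly along the vertical axis, near a suspension effect of 0. The 12 genes called in both experiments (green) lie near the dashed line of equal effects, and the other 20 genes called in suspension without a called difference are purple.

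A difference that was not called does not show that the effects were equal. Its 95% interval had a median half-width of 0.272 in log2 units. Of the 9017 genes without a called difference, 8939 had an interval that lay within a 2-fold difference either way, and 7935 within 1.5-fold. Fewer differences were called, 59, after the arrays of both experiments were given one signal distribution by quantile normalization, and 57 of these belonged to the 116. With the AEM and spaceflight groups exchanged, as the free-text descriptions would have it, 529 differences were called, and 36 genes in place of 439 had a called mean, effects of 1 sign and no called difference. The exchange turns the test of the difference into the test of the mean, and the reverse. These counts therefore follow from the main fit and do not show which labels are right.

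Many genes that respond to glucocorticoids had a higher effect in flight than in suspension. Of 24 list members tested, 19 rose in flight and 0 fell, by limma, and 0 were called in suspension (3 at an unadjusted p under 0.05). The difference was called in 12, all with flight above. The median flight effect over the 24 was 0.76 and the median suspension effect 0.08, against -0.01 and 0.00 over all tested genes. All 24 had a flight effect above the suspension effect. The list was drawn up with earlier results of these data known and is no independent evidence of its direction.

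Metallothioneins 1 and 2, encoded by Mt1 and Mt2, are small cysteine-rich proteins that bind zinc and copper, and their transcription responds to metals and to glucocorticoids. The genes are neighbours on chromosome 8. Their promoters are shown because Mt2 had the largest difference of effects and Mt1 the third largest. The letters are the 250 bases before the RefSeq start on GRCm38.p6, at chr8:94178839-94179088 for Mt1 and chr8:94172368-94172617 for Mt2, both on the plus strand. Capitals mark the core of the metal response element, TGCACNC or TGCGCNC, searched on both strands.
Mt1: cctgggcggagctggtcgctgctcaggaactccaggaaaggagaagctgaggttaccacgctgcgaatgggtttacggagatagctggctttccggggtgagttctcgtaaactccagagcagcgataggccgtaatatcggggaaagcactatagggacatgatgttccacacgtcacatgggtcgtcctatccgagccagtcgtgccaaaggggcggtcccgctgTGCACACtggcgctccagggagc
Mt2: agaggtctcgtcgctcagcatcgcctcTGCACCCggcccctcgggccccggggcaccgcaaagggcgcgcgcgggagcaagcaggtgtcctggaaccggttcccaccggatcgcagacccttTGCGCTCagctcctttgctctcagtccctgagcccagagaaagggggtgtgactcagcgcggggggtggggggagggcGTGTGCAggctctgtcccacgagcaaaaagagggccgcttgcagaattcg
Only these 250 bases were searched, so the counts need not be the full number of elements of either gene. Within them the core occurred 3 times for Mt2 and 1 time for Mt1. It occurred at least 1 time in 21.3% of 27025 mouse promoters of this length, and 3 or more times in 1.28%. Of the 79 genes with flight above suspension, 70 had a promoter entry and 17 of those (24.3%) held the core, compared with 29.3% of tested genes with an entry. A match in letters is not evidence of binding.

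For Mt2 the 4 AEM arrays read 7.76, 8.21, 8.44 and 10.51, and the 4 spaceflight arrays 11.79, 11.97, 12.19 and 12.46. The calf controls read 8.02 to 8.49 with a median of 8.12, and the suspension arrays 7.50, 8.20, 8.21, 8.34 and 8.88. Every flight array exceeded every AEM array, whereas suspended and control muscles overlapped throughout. The flight effect was 3.37 ± 0.43 (SE), the suspension effect 0.04 ± 0.17, and the difference 3.33 ± 0.46 (limma adjusted p = 0.000366). The highest AEM value belonged to AEM replicate 2, which was also the highest of its group for Ddit4, Btg2 and Zfp36. Without it the Mt2 difference was 3.92 (limma adjusted p = 4.69e-10). Mt1 behaved alike, with 8.54, 8.93, 9.06 and 10.88 on the AEM arrays and 11.48, 11.51, 11.69 and 11.72 in flight. Control and suspension arrays for Mt1 spanned 8.26 to 9.02 and 8.42 to 9.35. The Mt1 difference was 2.16 ± 0.41 (limma adjusted p = 0.00415).

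Ddit4 encodes REDD1, which restrains the growth kinase mTORC1 under stress. Its AEM arrays read 7.39, 7.57, 7.80 and 10.68 and its flight arrays 10.79, 11.23, 11.33 and 11.37, so that flight and AEM were separated narrowly by 1 AEM array. The suspension arrays, at 7.09 to 8.49, overlapped the controls, at 6.74 to 7.92. The difference was 2.54 ± 0.63 (limma adjusted p = 0.0384). It was lost when any of 12 of the 18 arrays was left out, with adjusted p up to 0.103, and after quantile normalization over all arrays (adjusted p = 0.0743). Without AEM replicate 2 it was 3.31 (adjusted p = 1.76e-05).

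Other members of the glucocorticoid list act in the catabolic and anti-inflammatory arms of the response. Foxo1, a transcription factor of muscle breakdown that insulin restrains, read 8.03 to 8.83 on the AEM arrays and 9.41 to 9.92 in flight, with no overlap. The calf controls read 7.19 to 7.81 and the suspension arrays 7.35 to 8.28 for Foxo1, and the difference was 1.19 ± 0.23 (limma adjusted p = 0.00415). Foxo3, its relative, had a smaller difference of 0.49 ± 0.11 (limma adjusted p = 0.0214). The call for Foxo3 was lost without AEM replicate 3 (adjusted p = 0.0546), AEM replicate 4 (0.0671) or spaceflight replicate 9 (0.0608), and with the mean of its probe sets (0.18). Nfkbia, the inhibitor that holds NF-kappa-B in the cytoplasm, differed by 0.73 ± 0.15 (limma adjusted p = 0.0118), and Per1, a clock gene that glucocorticoids induce directly, by 1.56 ± 0.27 (limma adjusted p = 0.00167). Zfp36, whose protein promotes decay of cytokine mRNAs, differed by 1.61 ± 0.25 (limma adjusted p = 0.000895).

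Not every member of this list separated the models. Fkbp5, a chaperone of the receptor, had effects of 0.84 in flight and 0.43 in suspension, and the difference of 0.41 ± 0.24 was not called (limma adjusted p = 0.527). Cebpd, a transcription factor, read 7.97, 8.41, 8.41 and 8.90 on the AEM arrays and 9.89 to 10.49 in flight. Its suspension arrays, at 7.63 to 8.83, overlapped the controls at 7.20 to 8.24, and the difference of 1.29 ± 0.34 missed the threshold (limma adjusted p = 0.0569). The probe sets of the atrophy ubiquitin ligase Fbxo32 disagreed. The brighter was called in neither experiment, with effects of 0.20 ± 0.12 and -0.02 ± 0.24. When probe sets were tested singly, the other rose by 0.72 in flight (limma adjusted p = 0.00324) with a suspension effect of 0.01, and its difference of 0.71 was not called (0.288). Of 14 tested ubiquitin ligase and atrophy genes, 4 rose in flight and limma called 0 in suspension (1 at an unadjusted p under 0.05), and the 2 with a called difference were Foxo1 and Foxo3. Of 32 proteasome subunits, 2 fell in flight and limma called 0 in suspension (1 at an unadjusted p under 0.05). The shares of all tested genes were 3.18% higher and 2.46% lower in flight.

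Called differences also included a few growth arrest genes and transcripts of the early stress response. Of 15 p53 and growth arrest targets tested, 5 rose in flight and 3 had a called difference, while limma called 0 in suspension (4 at an unadjusted p under 0.05). Of 21 immediate-early genes, 6 rose and 2 fell in flight, 1 fell in suspension, and 3 differed, all with flight above. Among all tested genes 3.18% rose and 2.46% fell in flight, 0.372% were called in suspension and 1.27% had a called difference. Cdkn1a, the p21 inhibitor of cyclin-dependent kinases, read 8.87, 8.89, 9.14 and 9.41 in AEM and 10.40, 10.42, 10.44 and 10.77 in flight. The Cdkn1a values of control muscle, 8.37 to 9.06, and suspended muscle, 8.56 to 9.00, overlapped. The difference for Cdkn1a was 1.39 ± 0.23 (limma adjusted p = 0.00114), and it was called with each array left out in turn. Btg2, an antiproliferative gene, had a difference of 2.01 ± 0.30 (limma adjusted p = 0.000869). The Btg2 suspension arrays, at 7.52 to 7.87, lay below the controls, at 7.88 to 8.28, while the flight arrays, at 10.39 to 10.88, lay above the AEM arrays, at 8.52 to 9.96. Btg2 was not called in suspension on its own (-0.36 ± 0.15, limma adjusted p = 0.492).

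Several other regulators had a higher effect in flight. Sox4, a transcription factor of progenitor cells, read 6.52 to 7.65 in AEM and 8.42 to 8.66 in flight, and 7.18 to 7.48 and 7.11 to 7.36 in control and suspended calf. Its difference was 1.68 ± 0.19 (limma adjusted p = 2.31e-05). A further 4 of its 5 other probe sets gave called differences of 1.39 to 3.44, and the remaining one gave -0.10. Lcn2, lipocalin 2, an iron-carrier-binding protein of the acute phase, rose from 4.67 to 5.80 in AEM to 6.48 to 6.84 in flight. Control and suspension arrays of Lcn2 overlapped, within 4.86 to 6.06, and its difference was 1.66 ± 0.29 (limma adjusted p = 0.00213). Genes were tested only where 4 or more arrays exceeded a signal of 5.83. The Lcn2 mean was above that level in flight alone, and was 5.05 in AEM, 5.22 in control and 5.19 in suspension. Signals this low limit what the suspension comparison of Lcn2 could show. Nfil3, a repressor in clock output, rose by 1.02 in flight, and its suspension effect was -0.26, a difference of 1.28 ± 0.24 (limma adjusted p = 0.00351). Myogenin, encoded by Myog and raised by denervation, had a difference of 0.89 ± 0.22 (limma adjusted p = 0.0338), which was lost without any of 9 arrays and after quantile normalization over all arrays (0.0849).

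**Figure D2:**
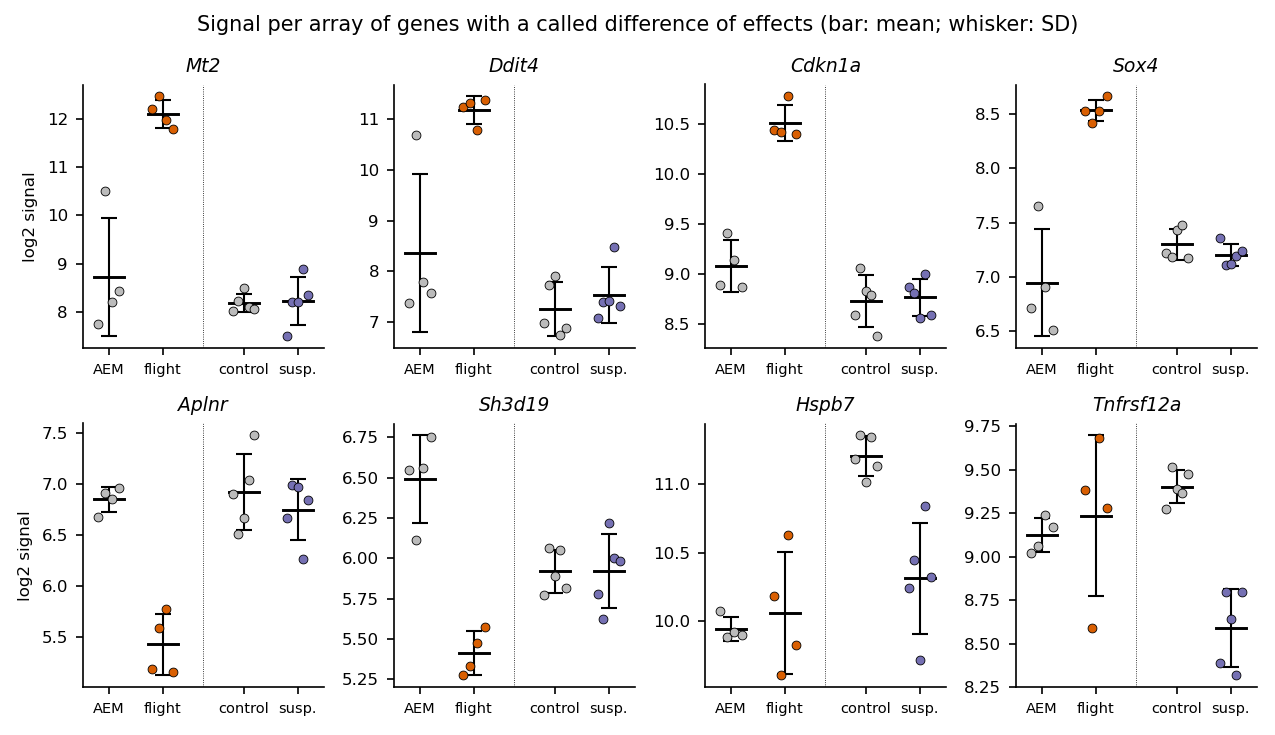
Log2 signal on each array for 8 genes with a called difference of effects. Points are arrays, horizontal bars are group means and whiskers are SDs; the dotted line separates the flight experiment (AEM, flight) from the calf experiment (control, susp. for suspension). Mt2, Ddit4, Cdkn1a and Sox4 rose in flight and Aplnr and Sh3d19 fell in flight, with no call in suspension, whereas Hspb7 and Tnfrsf12a fell in suspension with no call in flight.

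Genes called lower in flight than in suspension included several of blood vessels. Of 19 tested endothelial differentiation and vascular signalling genes, 9 fell in flight, 2 fell in suspension, and 3 had a called difference, all with flight below. Among all tested genes 2.46% fell in flight, 0.241% fell in suspension and 0.405% had a called difference with flight below. The medians of this list were -0.34 in flight and -0.11 in suspension. Aplnr, the apelin receptor, read 6.68, 6.86, 6.91 and 6.96 in AEM and 5.16, 5.18, 5.58 and 5.77 in flight. The suspension arrays for Aplnr, at 6.26 to 6.99, overlapped the controls, at 6.51 to 7.48. The difference was -1.25 ± 0.24 (limma adjusted p = 0.00495), although the dimmer of its probe sets gave -0.08, and it missed the threshold after quantile normalization over all arrays (0.057). Sox7, an endothelial transcription factor, differed by -0.81 ± 0.14 (limma adjusted p = 0.00224) and also missed after that normalization (0.0593). Its relative Sox18 differed by -0.80 ± 0.17 (limma adjusted p = 0.015) and missed likewise (0.0905). The differences of Aplnr, Sox7 and Sox18 after it were -1.05, -0.66 and -0.63. Of 14 general endothelial cell markers 1, Kdr, fell in flight and 0 were called in suspension by limma (1 at an unadjusted p under 0.05), and their summed signal was 3054 to 3329 in flight and 3007 to 3303 in AEM. In bulk muscle, fewer cells of a type and less RNA in each cell cannot be told apart.

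The other genes with flight below suspension had varied roles. Sh3d19, an adaptor protein with SH3 domains, read 6.11, 6.55, 6.56 and 6.75 in AEM and 5.28, 5.33, 5.47 and 5.57 in flight. Its control and suspension means were both 5.92, and the difference was -1.08 ± 0.16 (limma adjusted p = 0.000869). A dimmer probe set of Sh3d19 gave a difference of -0.24 that was not called (0.612). Flcn, folliculin, a regulator of mTORC1 at the lysosome, differed by -0.91 ± 0.15 (limma adjusted p = 0.00114), and Msi2, an RNA-binding protein, by -0.90 ± 0.14 (limma adjusted p = 0.00114). A further probe set of Flcn gave -0.55, which was not called (0.102). Tuba1a, an alpha tubulin, differed by -0.81 ± 0.17 (limma adjusted p = 0.0108). Slc9a3r2, a scaffold of membrane transporters, differed by -0.81 ± 0.16 (limma adjusted p = 0.00825), and by -0.68 without a call after quantile normalization over all arrays (0.0743). Atp8a1, a phospholipid flippase, differed by -0.82 ± 0.21 (limma adjusted p = 0.0451), and its call was lost with 11 of the arrays left out singly, up to 0.0949. The dimmer probe set of Atp8a1 gave a difference of -0.06 (limma adjusted p = 0.908).

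Opposite movements were few. Among the 116 genes, 9 had effects of opposite sign that each reached an unadjusted p under 0.05, namely Btg2, Hes1, Mapt, Nr2f2, Plin5, Selenoh, Slc25a25, Smox and Snrnp25. They were picked after their values had been seen. Smox, spermine oxidase, an enzyme of polyamine turnover, read 9.66 to 10.18 in AEM and 9.31 to 9.54 in flight, and 9.01 to 9.62 in control and 9.47 to 9.74 in suspended calf. Its difference was -0.73 ± 0.15 (limma adjusted p = 0.0113). Smox fell in flight, and its suspension effect of 0.28 was not called (limma adjusted p = 0.356). Plin5, a lipid-droplet protein of oxidative muscle, had effects of 0.56 and -0.46 and a difference of 1.02 ± 0.22 (limma adjusted p = 0.0124). Hes1, a target of Notch signalling, had effects of 0.55 and -0.28 and a difference of 0.82 ± 0.15 (limma adjusted p = 0.0035).

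Stretch-responsive and Z-disc genes were called mainly in suspension. Of 19 tested, limma called 5 lower and 0 higher in suspension (13 lower and 0 higher at an unadjusted p under 0.05), whereas in flight 1 rose and 2 fell. Among all tested genes 0.241% were called lower in suspension, and 8.65% reached that unadjusted level in either direction. The list median was -0.44 in suspension and 0.02 in flight. A flight effect above the suspension effect was found in 18 of the 19, and the median difference of all tested genes was -0.01. The difference was called for 2 of the 19, Hspb7 and Tnfrsf12a, which are also the only suspension-called genes among the 116. Hspb7, a small heat shock protein of striated muscle, read 11.02, 11.13, 11.18, 11.35 and 11.36 in the controls and 9.72, 10.24, 10.32, 10.44 and 10.84 in suspension. The AEM arrays for Hspb7, at 9.88 to 10.07, lay inside the flight range of 9.61 to 10.63. The difference was 1.01 ± 0.25 (limma adjusted p = 0.0432).

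Tnfrsf12a encodes the receptor for TWEAK, a cytokine linked to muscle wasting. Its controls read 9.27, 9.36, 9.39, 9.48 and 9.51 and its suspension arrays 8.32, 8.39, 8.64, 8.80 and 8.80, with no overlap. In flight it read 8.59, 9.28, 9.39 and 9.68 around the AEM values of 9.02 to 9.24. The difference for Tnfrsf12a was 0.92 ± 0.24 (limma adjusted p = 0.0494). Both calls of a difference were marginal: Hspb7 lost it without any of 13 arrays and Tnfrsf12a without any of 15, and both lost it without suspension replicates 8 and 9 (0.0745 and 0.0818) and after quantile normalization over all arrays (0.104 and 0.0785). Their falls in suspension were called with each array left out in turn. The other 2 probe sets of Hspb7 gave differences of 0.66 and 0.52 that were not called.

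Csrp3, the Z-disc protein MLP, showed the same arrangement without a called difference. It read 9.61 to 10.05 in control and 8.95 to 9.54 in suspended calf, a fall of 0.76 ± 0.13 on the log2 scale (limma adjusted p = 0.00891). In AEM it read 9.51 to 9.93 and in flight 8.95, 9.69, 10.12 and 10.49, so that the flight arrays spread to both sides. The difference of 0.77 ± 0.28 had a 95% interval of 0.20 to 1.34 (limma adjusted p = 0.212). The ankyrin-repeat stretch sensors gave differences of 1.11 for Ankrd1 and 0.59 for Ankrd2, neither of which was called (limma adjusted p = 0.216 and 0.388). Pdlim1, a Z-disc adaptor, was an exception and fell in both experiments.

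A few slow-fibre genes were called in each experiment. Of 12 tested, 3 fell in suspension (Casq2, Myl3 and Myoz2), 1 rose and 2 fell in flight, and the difference was called for 0 by limma (3 at an unadjusted p under 0.05). Casq2, calsequestrin 2, stores calcium in slow and cardiac muscle. Casq2 read 8.86 to 9.22 in control and 8.15 to 8.59 in suspension, but 8.56 to 8.94 in AEM and 8.33 to 8.83 in flight. Its difference was 0.55 ± 0.16 (limma adjusted p = 0.0864). The list medians were -0.29 in suspension and -0.03 in flight. Myl2, the slow regulatory light chain, had effects of -0.42 in flight and -0.60 in suspension, and its mean effect was called (limma adjusted p = 0.000955). The slow myosin heavy chain Myh7 was not called in either experiment. The calf controls carried more slow-fibre signal than any other group. That sum is made of slow-fibre genes, some of them on this list, such as Myl3, and is no separate observation. The part of slow-fibre content in the result was not tested. Of 16 fast-fibre genes, limma called 0 in flight, in suspension or for the difference (2, 2 and 0 at an unadjusted p under 0.05).

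**Figure D3:**
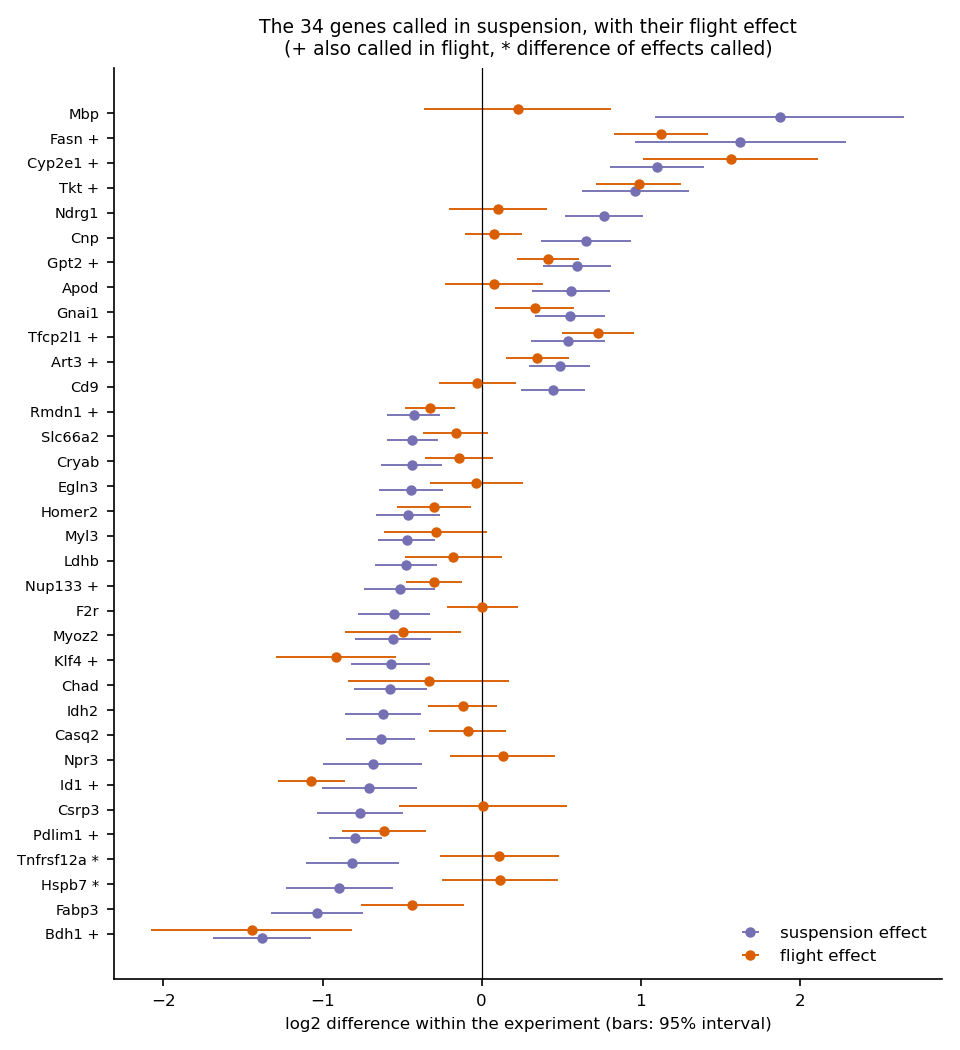
The 34 genes called in suspension, ordered by suspension effect (purple), with the flight effect of each gene (orange). Points are log2 differences within the experiment and bars are 95% intervals. The 12 genes marked + were called in both experiments, and the 2 marked * had a called difference of effects.

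Of the 22 suspension-called genes that were not called in flight, 16 had a flight effect of the same sign. The 95% interval of the difference excluded 0 for 16 of the 22, and 2 remained after adjustment. Over all tested genes 12.2% had such an interval. The 22 were picked by a call in suspension and none in flight, which itself favours a difference. Their share is therefore no independent evidence of one. Nerve sheath genes stood at the top of the suspension list. Mbp, myelin basic protein, read 8.33, 8.86, 8.96, 9.18 and 9.25 in control and 10.36, 10.75, 10.80, 10.88 and 11.16 in suspension, with no overlap. Its AEM arrays, at 8.51 to 10.06, enclosed 3 of the 4 flight arrays, at 9.23 to 10.15. The difference of -1.65 ± 0.55 was not called (limma adjusted p = 0.164), with a 95% interval of -2.77 to -0.52. It was called (0.0144) when the reloaded arrays were left out of the fit. Of 8 tested Schwann cell and myelin markers, 2 rose in suspension (Mbp and Cnp) and limma called 0 in flight or for the difference. At an unadjusted p under 0.05, all 8 were higher in suspension and 7 had a difference with flight below, against 12.2% of all tested genes with a difference in either direction at that level. The suspension call of Mbp was lost without any of 7 arrays, up to 0.0792. Their summed signal was 3361 to 5295 in suspension, 1794 to 2224 in control, 2159 to 3304 in flight and 1657 to 2972 in AEM. The part of nerve tissue in the samples was not tested.

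The 12 genes called in both models included the enzymes Bdh1, Cyp2e1, Fasn, Tkt and Gpt2. Of 22 tested genes of fatty acid synthesis and NADPH supply, 5 rose in flight, 2 rose in suspension, and 9 were shared by both models, all higher. The difference was called for 0 of them by limma (1 at an unadjusted p under 0.05), and 16 of the 22 had both effects above 0. Both effects had 1 sign, in either direction, in 55.2% of all tested genes. The list medians were 0.28 in flight and 0.14 in suspension. Fasn, fatty acid synthase, which builds palmitate, read 7.76, 7.88, 8.19 and 8.24 in AEM and 8.91, 9.01, 9.16 and 9.50 in flight. In the calf it read 5.98, 6.51, 6.59, 7.80 and 7.84 in control and 8.13, 8.24, 8.41, 9.03 and 9.03 in suspension. The groups did not overlap in either experiment. The effects were 1.13 ± 0.14 (limma adjusted p = 0.000416) and 1.62 ± 0.32 (limma adjusted p = 0.0244), and the difference of -0.50 had a 95% interval of -1.38 to 0.38.

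The upstream sequence of Fasn is shown because it had the largest mean effect of the lipogenesis list. It covers the 250 bases before the RefSeq start on GRCm38.p6, chr11:120824548-120824797 on the minus strand, written in the direction of transcription. Capitals mark the letters CCAAT on either strand, a box bound by the factor NF-Y in many lipogenic promoters.
Fasn: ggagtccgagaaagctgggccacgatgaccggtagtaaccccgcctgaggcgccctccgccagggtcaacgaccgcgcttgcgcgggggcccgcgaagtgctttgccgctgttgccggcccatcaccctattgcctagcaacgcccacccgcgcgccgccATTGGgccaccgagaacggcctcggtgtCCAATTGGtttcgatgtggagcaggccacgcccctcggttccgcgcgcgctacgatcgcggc
CCAAT was found 3 times, and 2 of these overlap on opposite strands. It occurs at least 1 time in 34.5% of promoters of this length and 3 or more times in 2.98%. Among tested genes with a promoter entry the shares were 35.8% and 4.74%. Of the 12 genes called in both experiments, 10 had an entry and 2 of those (20%) held CCAAT. A match in letters is no evidence of binding here either.

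Tkt, transketolase of the pentose phosphate pathway, rose almost equally in both. It read 7.76, 7.92, 8.20 and 8.42 in AEM and 8.96, 9.02, 9.13 and 9.14 in flight. In the calf it read 6.25, 6.32, 6.42, 6.92 and 6.98 in control and 7.09, 7.39, 7.49, 7.81 and 7.94 in suspension. The groups did not overlap in either experiment, and the effects were 0.99 ± 0.12 and 0.97 ± 0.16 (limma adjusted p = 0.000512 and 0.00891). The difference was 0.02 with a 95% interval of -0.45 to 0.50. Thrsp, a lipogenic regulator, and Acly, which makes cytosolic acetyl-CoA, rose in flight by 1.36 and 0.64 and had suspension effects of 0.89 and 0.57 that were not called (limma adjusted p = 0.109 and 0.12).

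Fat-cell genes moved with this group. Of 11 tested adipocyte markers, 7 rose in flight, limma called 0 in suspension (5 at an unadjusted p under 0.05), 4 were shared by both models and 2 had a called difference. Their summed signal was 17166 to 18220 in flight, 15008 to 16081 in AEM, 15516 to 17061 in suspension and 14075 to 16894 in control. Adipoq, the fat-cell hormone adiponectin, read 8.08, 8.57, 8.58 and 8.62 in AEM and 9.68, 9.92, 9.95 and 10.08 in flight. In the calf it read 7.91 to 9.09 in control and 9.03 to 9.75 in suspension, overlapping by 1 pair of arrays. The lowest AEM value of Adipoq was in AEM replicate 2. Its effects were 1.44 ± 0.12 (limma adjusted p = 9.1e-05) and 0.86 ± 0.22 (0.109). Retn, resistin, had effects of 1.05 and 0.68. Plin4 and Cidec, which coat lipid droplets, differed by 1.06 ± 0.16 (limma adjusted p = 0.000869) and 1.14 ± 0.24 (limma adjusted p = 0.0113), with flight above. The Cidec mean exceeded the signal level required for testing in flight alone, at 6.72. It was 5.05 in AEM, 5.28 in control and 5.80 in suspension. Signals this low limit what the suspension comparison of Cidec could show, and with it the difference. The part of fat tissue in the lipogenic rise was not tested.

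Cyp2e1, a cytochrome that oxidises ethanol and ketones, rose in both: it read 6.95 to 7.62 in AEM and 8.19 to 9.79 in flight, and 7.67 to 8.06 in control and 8.51 to 9.30 in suspension. The groups did not overlap in either experiment. Its effects were 1.56 ± 0.26 (limma adjusted p = 0.00308) and 1.10 ± 0.14 (limma adjusted p = 0.000442). Gpt2, the mitochondrial alanine transaminase, rose by 0.42 and 0.60, and Cdo1, cysteine dioxygenase, had effects of 1.08 in flight and 0.99 in suspension, the latter just short of a call (limma adjusted p = 0.0566). Tfcp2l1, a transcription factor, rose by 0.73 and 0.54, and Art3, an ADP-ribosyltransferase family member abundant in muscle, by 0.35 and 0.49. The Tfcp2l1 means in AEM and control, 5.50 and 5.53, were below the signal level required for testing. Signals this low limit what the sizes of its effects could show.

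An enzyme of ketone use fell in both. Bdh1, mitochondrial 3-hydroxybutyrate dehydrogenase, which starts ketone body oxidation in muscle, read 7.93, 8.22, 8.57 and 8.77 in AEM and 6.31, 6.55, 6.86 and 8.00 in flight. In the calf it read 8.55, 8.56, 8.61, 8.63 and 8.64 in control and 6.86, 6.92, 7.20, 7.47 and 7.65 in suspension. A single flight array lay just above the lowest AEM array, whereas the calf groups were far apart. Bdh1 effects were -1.44 ± 0.29 (limma adjusted p = 0.012) and -1.38 ± 0.15 (limma adjusted p = 3.66e-05), and the difference of -0.06 had a 95% interval of -0.74 to 0.61. Oxct1, the next enzyme of ketone oxidation, had effects of -0.26 and -0.41, neither called alone, and its mean effect was called (limma adjusted p = 0.011). Of 6 tested ketone body genes, 1 fell in flight and 1 in suspension, Bdh1 in both cases.

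Genes of mitochondrial fuel oxidation had small effects, mostly below 0 in both. Among all tested genes 55.2% had both effects of 1 sign, in either direction. The flight effect was above 0 in 47% of all tested genes and the suspension effect in 50.9%. Of 31 fatty acid uptake and oxidation genes, 22 had both effects below 0 and 5 were shared by both models, all lower. The medians of these 31 were -0.23 in suspension and -0.09 in flight, and 25 had a flight effect above the suspension effect. The median difference of all tested genes was -0.01. At an unadjusted p under 0.05, 21 of the 31 were lower and 0 higher in suspension, and 7 lower and 1 higher in flight. That level was reached, in either direction, by 8.65% of all tested genes in suspension and 19.6% in flight. Limma called the difference for 0 of the 31 (3 with flight above and 2 with flight below at that level). Of 26 citric acid cycle genes 21, and of 70 oxidative phosphorylation genes 55, had both effects below 0. Yet 1 of the 70 fell in flight and limma called 0 in suspension (17 lower and 0 higher at an unadjusted p under 0.05), and their medians were -0.09 and -0.10. Fabp3, the fatty acid carrier of heart and slow muscle, fell by 1.03 ± 0.14 on the log2 scale in suspension (limma adjusted p = 0.000805). It read 11.57 to 12.36 in control and 10.69 to 11.21 in suspension. In flight the effect was -0.44 ± 0.15 (limma adjusted p = 0.12), with 11.38 to 12.00 in AEM and 11.06 to 11.66 in orbit, and the difference of 0.60 was not called (0.234). Ppargc1a, the coactivator PGC-1alpha that drives mitochondrial genes, had the reverse imbalance. It fell from 8.98 to 9.71 in AEM to 8.11 to 8.37 in flight, while control and suspension overlapped at 6.64 to 6.98 and 6.61 to 7.12. The Ppargc1a difference was -1.19 ± 0.38 (limma adjusted p = 0.131). When its probe sets were tested singly, 1 of 5 had a called difference, at -1.24 (limma adjusted p = 0.0377).

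**Figure D4:**
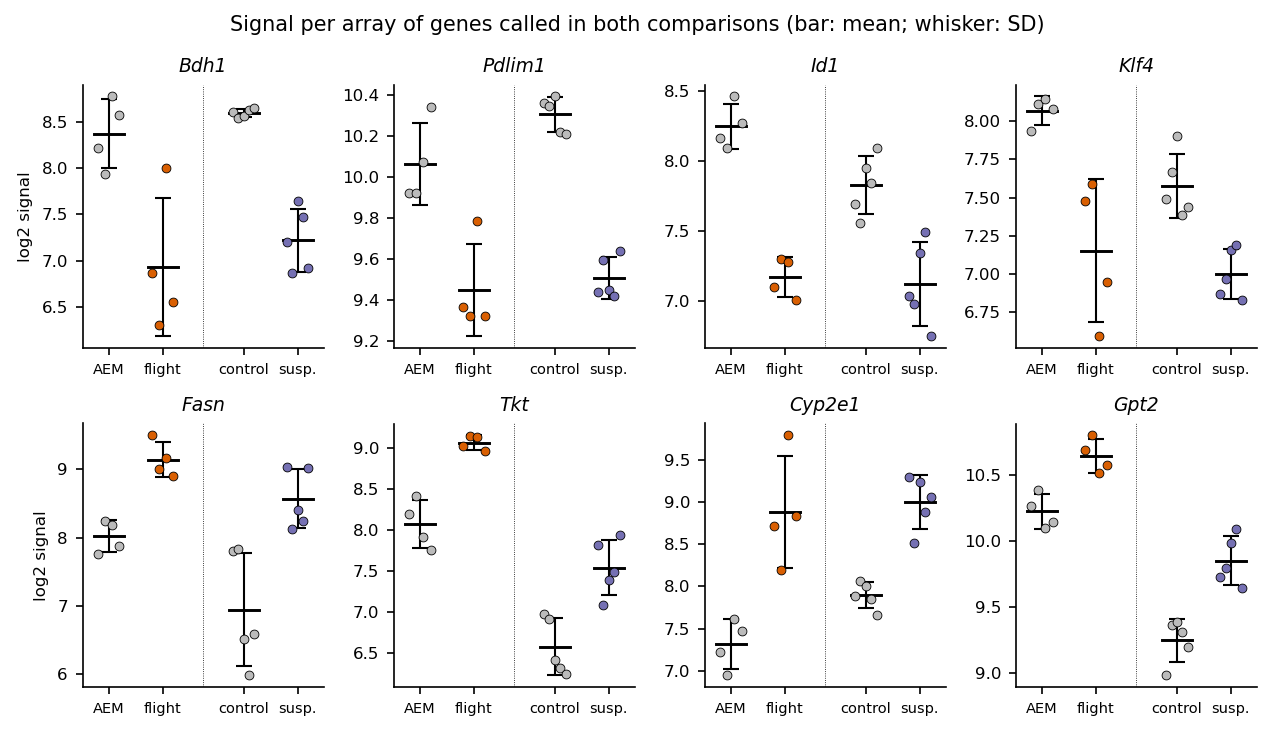
Log2 signal on each array for 8 of the 12 genes called in both experiments. Points are arrays, bars are means and whiskers are SDs; the dotted line separates the flight experiment (AEM, flight) from the calf experiment (control, susp. for suspension). Bdh1, Pdlim1, Id1 and Klf4 were lower and Fasn, Tkt, Cyp2e1 and Gpt2 higher in the unloaded groups, and for Bdh1 1 flight array lies inside the AEM range.

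The other common falls concerned growth control and structure. Pdlim1 read 9.92, 9.92, 10.07 and 10.34 in AEM and 9.32, 9.32, 9.37 and 9.78 in flight, and 10.21 to 10.39 in control and 9.42 to 9.64 in suspension. Flight did not overlap AEM, nor suspension control, and its effects were -0.61 ± 0.12 (limma adjusted p = 0.0105) and -0.79 ± 0.08 (limma adjusted p = 2.47e-05). Id1, an inhibitor of differentiation factors and a target of BMP signalling, fell by 1.07 and 0.71, and Klf4, a transcription factor of endothelium and other tissues, fell by 0.91 and 0.57 on the log2 scale. Nup133, a nuclear pore subunit, fell by 0.30 and 0.51, and Rmdn1, a microtubule-associated protein, fell by 0.32 and 0.43. Irs1, the adaptor of the insulin receptor, fell from 10.87 to 10.97 in AEM to 10.13 to 10.31 in flight, and had a suspension effect of -0.43 ± 0.12 that was not called (limma adjusted p = 0.198).

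The 12 doubly called genes were unequal in firmness. Bdh1, Tkt, Cyp2e1 and Pdlim1 stayed called in both experiments with each of the 18 arrays left out in turn. Nup133 stayed called in 4 of the 18 settings, Art3 in 10, Klf4, Tfcp2l1 and Rmdn1 in 11, Id1 in 12, Fasn in 13 and Gpt2 in 15. The second probe set of Tkt was also called in both experiments, whereas no further probe set of Gpt2, Klf4, Nup133 or Rmdn1 was. The count of 12 dropped to 5 without control replicate 19, 6 without control replicate 22 and 7 without suspension replicate 8. Without suspension replicates 8 and 9 together 5 remained, Bdh1, Cyp2e1, Gpt2, Pdlim1 and Tkt. Averaging the probe sets of each gene left 4. In 6 of the 12 the flight effect was the larger in size, and in 10 the 95% interval of the difference lay within 2-fold.

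Matrix genes mostly had effects below 0 in both experiments, and calls in flight. Of 34 extracellular matrix genes tested, 8 fell in flight, limma called 0 in suspension (14 at an unadjusted p under 0.05), 25 had both effects below 0 and 7 were shared by both models, all lower. Among all tested genes 2.46% fell in flight and 8.65% reached that unadjusted level in suspension. Both effects had 1 sign, in either direction, in 55.2% of all tested genes. The list median was -0.19 in both experiments. Col1a1, the type I collagen chain, read 8.13, 8.51, 9.25 and 9.34 in AEM and 7.54, 7.67, 7.83 and 8.22 in flight. Its calf arrays read 9.62, 9.65, 10.59, 10.61 and 10.61 in control and 8.04, 8.38, 8.59, 10.00 and 10.39 in suspension. Both pairs of groups overlapped, and the effects of -0.99 ± 0.23 (limma adjusted p = 0.0256) and -1.13 ± 0.38 (0.311) were of like size with unlike spread. The flight call of Col1a1 was lost without any of 5 arrays, up to 0.0808. Col3a1 had effects of -0.61 and -0.58. Serpinh1, the collagen chaperone, had effects of -0.53 ± 0.10 (limma adjusted p = 0.00939) and -0.31 ± 0.09 (0.212), and its groups did not overlap in either experiment. Of 12 tendon and connective tissue markers, 1 fell in flight, 1 fell in suspension and 10 had both effects below 0. Their summed signal was 1914 to 2600 in flight, 2209 to 4560 in AEM, 3130 to 5238 in suspension and 4691 to 5476 in control. The part of tendon in the collagen result was not tested.

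Insulin signalling, amino acid and clock genes were called mainly in flight, as were tested genes in general. The shares of all tested genes were 3.18% higher and 2.46% lower in flight, and 0.372% called in suspension. Of 27 insulin and IGF1 signalling genes, 8 rose and 1 fell in flight, limma called 0 in suspension (5 at an unadjusted p under 0.05), and 3 had a called difference (Ddit4, Foxo1 and Foxo3). Igf1 itself had effects of -0.07 ± 0.11 and 0.12 ± 0.12. Of 22 amino acid transport and transamination genes, 4 rose and 2 fell in flight and 1, Gpt2, rose in suspension. Of 17 clock genes, 4 rose in flight, limma called 0 in suspension (2 at an unadjusted p under 0.05), and 2, Per1 and Nfil3, had a called difference. The clock list had a median difference of -0.09, and 7 of the 17 had a flight effect above the suspension effect. Foxo1 and Foxo3 were also counted above among the atrophy genes, and Per1 in the glucocorticoid list. Of 24 heat shock proteins and co-chaperones, limma called 0 in flight (5 at an unadjusted p under 0.05) and 2, Hspb7 and Cryab, fell in suspension (10 lower and 0 higher at that level). The medians of these 24 were -0.01 in flight and -0.22 in suspension, and 20 had a flight effect above the suspension effect. For all tested genes the median difference was -0.01. Of 13 macrophage markers, limma called 0 in flight, in suspension or for the difference (2, 1 and 3 at an unadjusted p under 0.05). At that level 19.6% of all tested genes had a flight effect and 8.65% a suspension effect.

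**Figure D5:**
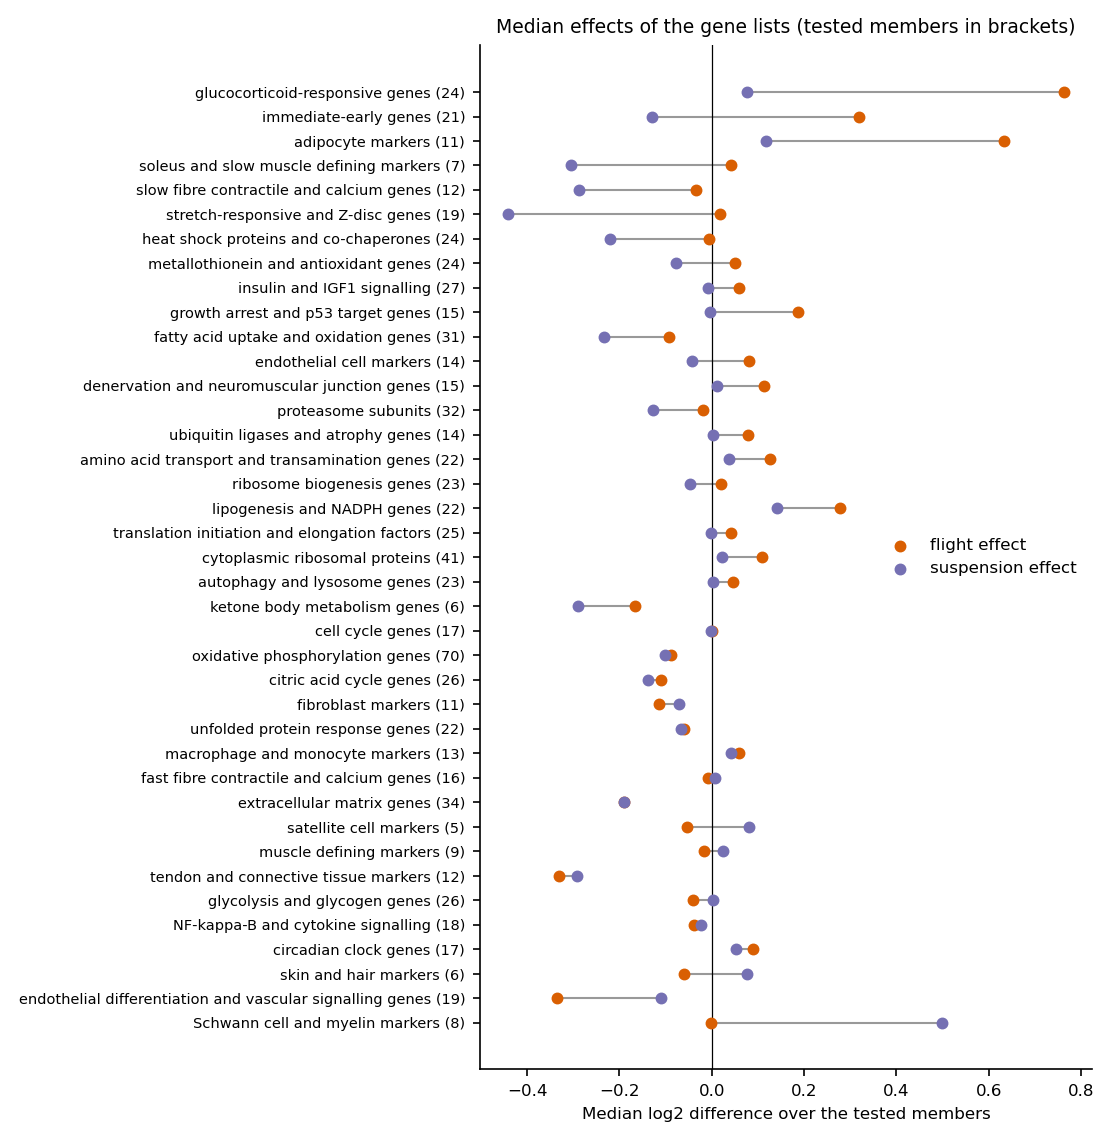
Median log2 effect over the tested members of each gene list with at least 5 tested members, for flight (orange) and suspension (purple), ordered by the median difference of effects. Glucocorticoid-responsive genes have medians of 0.76 in flight and 0.08 in suspension, stretch-responsive and Z-disc genes 0.02 and -0.44, and extracellular matrix genes -0.19 in both.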

How the data were processed

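Total RNA of mouse hindlimb muscle was hybridised to 1-colour Affymetrix-type biotin-labelled arrays, 1 array per sample. The log2 values deposited by the authors in the series' value table were used as given. RMA and MAS5 are named in the submitters' processing notes; the sources used here do not give which of them made the table, nor their versions. Of 22690 probe sets, 64 were control probe sets. Of the rest, 20380 had 1 gene symbol, 691 several and 1555 none in the platform annotation, and unnamed or ambiguous probe sets were not used. For each of 12393 genes the brightest probe set on average was kept. Genes were tested if 4 or more arrays exceeded a signal of 5.83, the 40th percentile of all values; 9133 passed.

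Models were fitted with limma 3.58.1 in R 4.3.3 (lmFit, eBayes, 2-sided), with Benjamini-Hochberg adjustment over all tested genes. The difference and the mean of effects used all 23 arrays with 5 group means, the flight effect its 8 arrays, and the suspension effect the 15 calf arrays. The procedure was tested on simulated data. The comparison, its gene lists and the genes to be named were chosen with earlier results of these data known. Named genes were the 8 largest called differences in each direction whose arrays did not overlap, the genes called in both experiments, the 6 largest mean effects in each direction among shared genes with separate groups, 28 fixed genes, and up to 2 differing and 1 shared member of each list. List members named beyond that were picked after their values were seen. Quoted intervals are 95% intervals of the same fits. The alternatives were other filters, probe-set rules, normalizations, variance models, thresholds, arrays in the fit and arrays left out. Precision is limited by the number of arrays. Promoter letters are from RefSeq on GRCm38.p6.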

Additional observations from a re-analysis of the deposited data

Results flagged for a closer look

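An array lay far from the rest of its group in 15 of 320 checks of a named gene in a group of 4 or 5 arrays. Chance alone would give about 1 in 20. AEM replicate 2 accounted for 4 of them. Its log2 signal of Btg2 was 9.96 against 8.73 for the nearest array, that of Ddit4 10.68 against 7.80 for the nearest array, and that of Zfp36 8.98 against 7.90 for the nearest array. Its signal of Adipoq was low, at 8.08 against 8.57 for the nearest array. AEM replicate 1 was high for Flcn, at 9.39 against 9.05 for the nearest array.

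Among spaceflight arrays, replicate 10 was high for Cdkn1a, at 10.77 against 10.44 for the nearest array, and for Pdlim1, at 9.78 against 9.37 for the nearest array. Replicate 11 was low for the citric acid cycle gene Idh2, at 10.69 against 11.07 for the nearest array, and for the tendon gene Thbs4, at 8.60 against 8.97 for the nearest array. Replicate 8 was high for the proteasome subunit Psma4, at 10.33 against 10.19 for the nearest array.

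In the calf, suspension replicate 25 was high for Ddit4, at 8.49 against 7.42 for the nearest array. Suspension replicate 11 was high for Ppargc1a, at 7.12 against 6.74 for the nearest array, and suspension replicate 8 was low for Msi2, at 6.73 against 7.06 for the nearest array. Control replicate 19 was low for Tfcp2l1, at 5.20 against 5.55 for the nearest array, and control replicate 2 was low for the clock gene Cry2, at 6.88 against 7.15 for the nearest array.

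The flight and suspension effects of 27 named genes differed by the limma test of the difference itself. A called difference was among the reasons for naming each of these genes, so their number is no separate result. The flight effect was higher by 3.33 for Mt2, 2.54 for Ddit4, 2.16 for Mt1, 2.01 for Btg2, 1.68 for Sox4, 1.66 for Lcn2, 1.61 for Zfp36, 1.56 for Per1, 1.39 for Cdkn1a, 1.28 for Nfil3, 1.19 for Foxo1, 1.14 for Cidec, 1.06 for Plin4, 1.01 for Hspb7, 0.92 for Tnfrsf12a, 0.89 for Myog, 0.73 for Nfkbia and 0.49 for Foxo3 on the log2 scale. The difference was -1.25 for Aplnr, -1.08 for Sh3d19, -0.91 for Flcn, -0.90 for Msi2, -0.82 for Atp8a1, -0.81 for Slc9a3r2, -0.81 for Sox7, -0.81 for Tuba1a and -0.73 for Smox.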

How the results depend on the processing

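For the differences of effects of 80 named genes, alternatives other than single arrays left out gave 740 values that kept direction and side of the threshold, 26 that lost a call, 10 that gained one and 16 that were uncalled and changed sign. No called value changed sign in these, which do not include the exchange of spaceflight and AEM, which turns every flight effect. With single arrays left out, 1320 values kept direction and side of the threshold, 63 lost a call and 16 gained one. Most of the 80 genes had no called difference and could not lose one. The kept values therefore overstate how firm the called differences were. Main counts were 116 called differences, 529 called means, 439 genes with a common effect, 515 flight calls, 34 suspension calls and 12 called in both. At an adjusted p under 0.01 they were 40, 221, 184, 181, 9 and 2. With at least 1.5-fold also required, means were 53, common 38, flight 153, suspension 17 and both 6. With all probe sets tested singly, the first 5 were 234, 969, 786, 945 and 56. Averaging probe sets per gene left 17 suspension calls and 4 in both. Quantile normalization over all arrays left 59 differences. Exchanging spaceflight and AEM gave 529 differences, 116 means, 36 common and 0 in both, which follow from the main fit because the exchange swaps the tests of difference and mean. Without suspension replicates 8 and 9 there were 7 suspension calls and 5 in both. Leaving out each array in turn gave 283 to 515 flight calls, 15 to 47 suspension calls, 5 to 14 in both, 78 to 157 differences, 370 to 576 means and 312 to 498 common. The cause of these shifts was not tested, apart from the exchange of groups, fewer samples or stricter thresholds. No paired analysis was possible because the groups compared within each experiment share no replicate numbers. Low signal limits genes with a whole group below the filter level of 5.83: Lcn2, Cidec and Tfcp2l1 in AEM, and Aplnr and Sh3d19 in flight, among others. The means of Lcn2 and Cidec were also below this level in control and suspension.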

Other observations

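Some antioxidant and metal-binding genes were called in flight. Of 24 tested, 7 rose and 1 fell in flight, limma called 0 in suspension (4 lower at an unadjusted p under 0.05), and 3 had a called difference, Mt1, Mt2 and Sesn1. Sesn1, sestrin 1, which restrains mTORC1 when amino acids are scarce, had effects of 0.77 in flight and 0.08 in suspension and a difference of 0.69 (limma adjusted p = 0.0161), which missed the threshold after quantile normalization over all arrays (0.65, limma adjusted p = 0.0743). Gpx3, the extracellular glutathione peroxidase, rose by 0.48 in flight, and its difference of 0.45 was not called (limma adjusted p = 0.216). Nqo1, a quinone reductase, fell by 0.49 on the log2 scale in flight and had a suspension effect of -0.08.

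Ribosome and junction genes had smaller effects. Of 41 cytoplasmic ribosomal protein genes, 3 rose in flight (Rps6, Rps15 and Rps25), limma called 0 in suspension (1 at an unadjusted p under 0.05) and 0 for the difference (10 at that level), and the medians were 0.11 and 0.02. Among all tested genes 3.18% rose in flight, and 12.2% had a difference at an unadjusted p under 0.05. Of 15 denervation and neuromuscular junction genes, Myog and Musk rose in flight and limma called 0 in suspension (2 at an unadjusted p under 0.05). Musk, the receptor kinase that organises the junction, had effects of 0.54 and -0.00 and a difference of 0.55 that missed the threshold (limma adjusted p = 0.0682). Of 26 glycolysis and glycogen genes, Pgam1 fell in flight and Ldhb, the lactate dehydrogenase subunit of oxidative muscle, fell in suspension, with 0 differences called by limma (3 at an unadjusted p under 0.05). The Ldhb effects were -0.18 and -0.47, and its difference of 0.30 had an adjusted p of 0.498. These genes were named after their values had been seen.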
